A study of Homo sapiens with 12 samples.

Results

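Alu monomers are short interspersed repeats of the human genome that hold a single arm of the Alu unit. This report covers every copy of the subfamilies FLAM_A, FLAM_C, FRAM and FAM that was listed on its own strand, meaning that the RNA counted ran in the direction of the repeat, in at least 1 of 12 libraries. There were 15220 such copies among 1509971 listed repeat elements of 6 classes. They comprised 4096 FLAM_A, 7231 FLAM_C, 2396 FRAM and 1497 FAM elements. They were taken by subfamily name alone, so no measured value chose them.

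The libraries were PAR-CLIP libraries, in which the uridine analogue 4-thiouridine is fed to cells, RNA is crosslinked by ultraviolet light to the protein that touches it, and the protein is pulled down with its RNA. All were made from A375, an established human melanoma cell line that still carries its own ZC3H18, a zinc-finger protein that links capped nuclear RNA to the RNA decay machinery. The cells received by transient transfection a pcDNA3.2 plasmid for a V5-tagged protein, labelling started 24 hours later, and an antibody against the V5 tag was used for each pull-down. The 4 groups of 3 libraries differed only in the tagged protein: the fluorescent protein Clover as control, full-length ZC3H18 (Z18fl), truncated ZC3H18 (Z18trunc), and the truncated form with changed aromatic residues in its zinc finger (Z18truncZnFmut). The same line and tag were therefore shared by all groups, and the Clover libraries served as the control of 3 comparisons. Construct level, markers of the line and the base changes left at crosslinks were not analysed here, since the tables hold counts per repeat element. Nothing in the labels says that the 3 libraries of a group came from separate cultures, so each p-value measures only the spread between these libraries, which may be technical.

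FLAM stands for free left Alu monomer, FRAM for free right Alu monomer and FAM for fossil Alu monomer. All descend from the gene for 7SL RNA, the RNA of the signal recognition particle, and the joining of a left and a right monomer gave rise to the dimeric Alu elements that later spread through primate genomes. An Alu left arm carries the A and B boxes of an RNA polymerase III promoter inside its own sequence, but most old copies are silent and are transcribed only as passengers in the introns and untranslated regions of genes.

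The elements were searched in the hg38 build for the letters TGGCTCA, which resemble the A box, and GTTCNANNC, the B box. Over all 15220 monomers the A-box letters stood on the element's own strand in 28.8% and on either strand in 31.1%. Windows of the same lengths placed 1000 bases downstream held them on either strand in 10.8%. The share on the own strand was 47.6% for FLAM_C, 30.0% for FRAM, 4.83% for FLAM_A and 1.60% for FAM. The B-box letters stood on the own strand in 30.0% of monomers and on either strand in 30.4%, against 7.03% of the windows. They were spread more evenly, from 23.3% of FRAM to 33.7% of FLAM_C. A match describes letters only, and the letter sets do not overlap each other.

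The monomers were short and old. Their median length was 132 bases against 297 for the 483449 dimeric Alu elements listed, and the longest had 276 bases. Median divergence from the subfamily consensus was 17.4%, against 11.4% for dimeric Alu and 16.2% for AluJ, the oldest dimeric group. Thymine, the base that 4-thiouridine replaces in RNA, made up 20.2% of their bases and adenine 29.8%. In the GENCODE 44 annotation, 8220 monomers (54.0%) lay in an intron and 688 (4.52%) in an exon of a gene on the same strand. Another 2898 (19.0%) lay opposite to a gene, and 3414 (22.4%) lay between genes.

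Most copies were barely seen. The median monomer had 2 counts over all 12 libraries together, and 12837 copies had fewer than 10. Only 305 were listed in all 12 libraries, whereas 7431 were listed in 1 library alone. The library total was 5807 to 6231 monomer counts with Clover, 10627 to 12729 with Z18fl, 11212 to 12011 with Z18trunc and 9808 to 14693 with Z18truncZnFmut, from 16683132 to 25686948 aligned fragments per library. After the filter on low counts, 171 monomers entered at least 1 test, and they carried 32.6% of monomer counts. The other 15049 are described by the sums of their subfamilies alone.

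One library stood apart. Z18truncZnFmut replicate 3 listed 1414822 repeat elements, against 283091 to 697167 in the other 11 libraries. It placed 16.3% of its aligned fragments on repeats, against 6.28% to 9.59%, and 55.4% of its repeat counts fell on the element's own strand, against 60.3% to 64.0%. It listed 6898 monomers, against 1798 to 4319, and 3107 of the copies seen in a single library were seen only there. Values of Z18truncZnFmut that rest on this library are therefore given by library or with and without it. Counts on 7SL RNA copies, the relatives from which monomers derive, ranged from 7764 to 33559 counts-per-million aligned fragments (CPM) and were highest in Z18truncZnFmut replicate 2. Their part in the monomer values was not tested.

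The tables list, for each element and library, 1 overall span of the fragments assigned to it. In the 1748 pairs of a monomer and a library with at least 10 counts, this span reached at least 20 bases past both ends of the element in 1593 pairs (91.1%) and stayed within the element in 0 pairs. The median overhang was 71 bases on the left and 72 on the right. Over all 43813 pairs, most of them with few counts, the span passed both ends in 22.1% and stayed within the element in 1571 pairs (3.59%), with a median overhang of 27 bases on each side. A span covers all fragments of an element together, so it does not give the length of single fragments.

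How much monomer RNA came down with each protein was asked first. FRAM, the right arm, gave 75.1 to 81.4 CPM in the Clover libraries. Z18fl libraries gave 118, 113 and 122, Z18trunc libraries 115, 106 and 116, and Z18truncZnFmut libraries 111, 101 and 117. Every library with a ZC3H18 protein lay above every Clover library. FLAM_C, the most counted left-arm subfamily, gave 148 to 177 with Clover, 211 to 224 with Z18fl, 214 to 234 with Z18trunc and 206 to 284 with Z18truncZnFmut. FLAM_A gave 70.0 to 79.0 with Clover, 92.8 to 99.0 with Z18fl, 95.5 to 103 with Z18trunc and 92.0 to 139 with Z18truncZnFmut. FAM, the fossil form, gave 35.5 to 36.5 with Clover, 46.2 to 50.6 with Z18fl, 47.7 to 54.5 with Z18trunc and 49.6 to 67.2 with Z18truncZnFmut. Replicate 3 was the highest Z18truncZnFmut library in all 4 subfamilies.

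**Figure D1:**
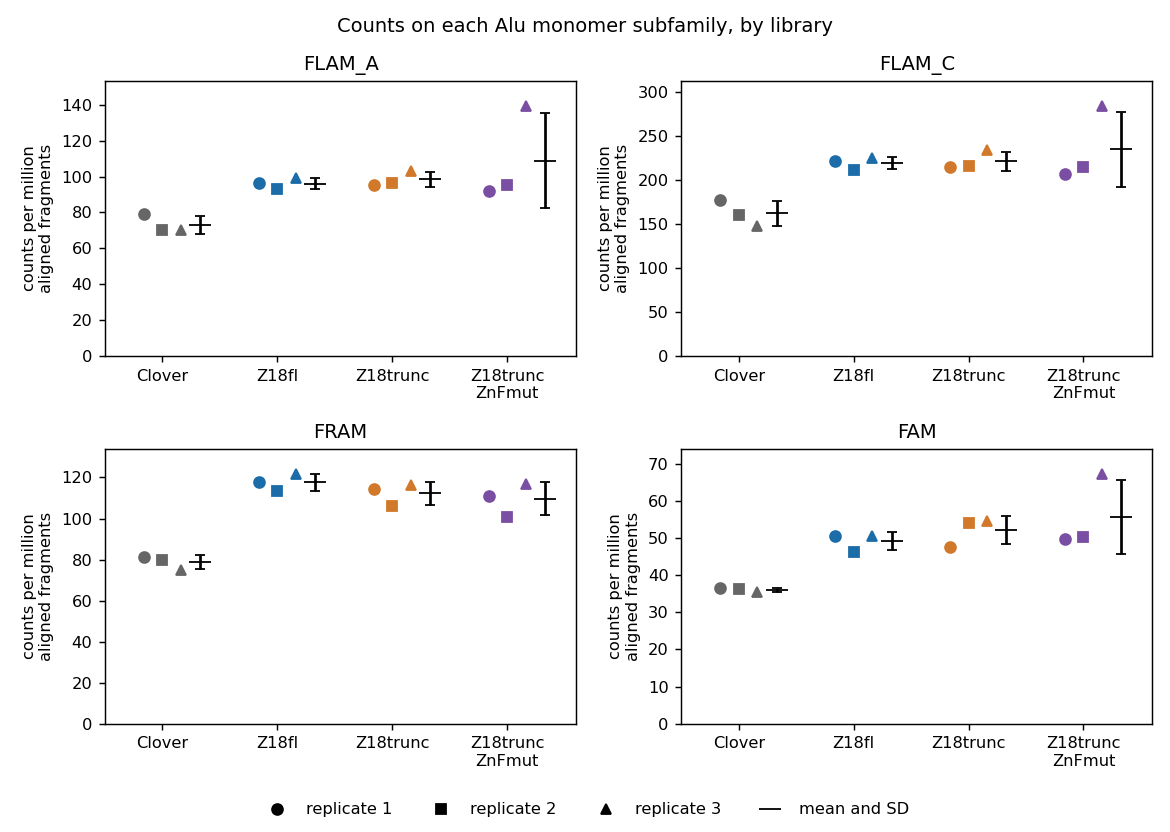
CPM (y axis, from 0) on FLAM_A, FLAM_C, FRAM and FAM elements in each of the 12 libraries, grouped by tagged protein on the x axis; markers are libraries and the bar beside them is the mean with its SD. FRAM lay between 75.1 and 81.4 in the Clover libraries and between 101 and 122 in the other 9, and under TMM scaling no difference in FRAM was called.

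The 4 subfamilies together had 350 ± 22.6 CPM (SD, n = 3) with Clover, 481 ± 16.5 with Z18fl, 484 ± 20.6 with Z18trunc and 509 ± 84.9 with Z18truncZnFmut. Each ZC3H18 group lay apart from Clover, at an exact two-sided permutation p of 0.1 and an adjusted p of 0.174 over 40 tests. A p of 0.1 is the smallest that 3 libraries against 3 can give, so no single value here could pass 0.05. Z18trunc differed from Z18fl by 2.28 CPM and Z18truncZnFmut from Z18trunc by 25.1, both with overlapping libraries (exact permutation p = 1 and 1). Without replicate 3 of Z18truncZnFmut, its difference from Clover was 110 in place of 159, and its difference from Z18trunc was -23.9.

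Scaling decided whether these sums counted as a change. TMM scaling, used in the edgeR tests, sets most repeat elements to no change, and there none of the 4 subfamily sums was called in any of the 5 comparisons. Over the sums of all repeat subfamilies, the share called in either direction against Clover was 40.3% with Z18fl, 26.7% with Z18trunc and 1.3% with Z18truncZnFmut. It was 3.7% between the truncated and the full-length protein and 0% between the truncated protein and its mutant. FRAM changed by 0.11 on the log2 scale (SE 0.07, edgeR adjusted p = 0.24) with Z18fl, by 0.05 (SE 0.10, edgeR adjusted p = 0.79) with Z18trunc and by -0.25 (SE 0.31, edgeR adjusted p = 0.69) with Z18truncZnFmut. The other 3 sums lay between -0.24 and 0.06 against Clover. Scaled by aligned fragments instead, FRAM rose by 0.58 (edgeR adjusted p = 2.2e-05) with Z18fl and by 0.51 (edgeR adjusted p = 8.2e-05) with Z18trunc, and FLAM_A, FLAM_C and FAM rose by 0.39 to 0.53. With Z18truncZnFmut the 4 sums were 0.47 to 0.63 higher and not called. Under TMM the Z18truncZnFmut sums of FLAM_A, FLAM_C, FRAM and FAM were -0.24, -0.24, -0.25 and -0.16 with all libraries, and 0.02, 0.05, 0.09 and 0.13 without replicate 3, a change of sign. The same switch moved the median of all subfamily sums from -0.01 to 0.46 with Z18fl and from 0.01 to 0.48 with Z18trunc. With Z18truncZnFmut it moved from 0.03 to 1.04, above the 4 monomer sums. Over single elements the median moved from 0.01 to 0.37 with Z18fl and from -0.03 to 0.31 with Z18trunc. With Z18truncZnFmut it moved from -0.05 to 0.15. The rise by aligned fragments was thus seen over all elements tested and not in monomers alone.

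Per length of element, FRAM stood highest. It gave 0.220 ± 0.009 CPM per kilobase (SD, n = 3) with Clover, against 0.174 ± 0.015 for FLAM_C, 0.152 ± 0.002 for FAM and 0.147 ± 0.010 for FLAM_A. FRAM led in all 12 libraries, and FLAM_C stood above FLAM_A in all 12. FAM and FLAM_A were neighbours in this order, and with Clover their libraries overlapped. With Z18fl the levels were 0.328 ± 0.012 for FRAM, 0.235 ± 0.007 for FLAM_C, 0.206 ± 0.011 for FAM and 0.194 ± 0.006 for FLAM_A.

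A ratio within a library does not depend on scaling. The log2 ratio of monomer to dimeric Alu counts was -5.58, -5.62 and -5.61 in the Clover libraries and -5.35, -5.29 and -5.31 in the Z18fl libraries. It was -5.45, -5.47 and -5.41 with Z18trunc and -5.54, -5.50 and -5.45 with Z18truncZnFmut. Monomers thus stood higher against dimeric Alu in each ZC3H18 group than in Clover, by 0.29, 0.16 and 0.11 on the log2 scale, with no overlap of libraries (exact permutation p = 0.1 each, adjusted 0.174). Z18trunc lay below Z18fl by 0.12 without overlap (exact permutation p = 0.1), and Z18truncZnFmut overlapped Z18trunc (exact permutation p = 0.3). Leaving out any library kept these directions, and without Z18truncZnFmut replicate 3 its difference from Clover was 0.08. Counting reads on either strand shrank the differences from Clover to 0.20, 0.11 and 0.04. MIR, another group of short interspersed repeats, also gave more with Z18fl, 3590 to 3710 CPM against 2718 to 3076 with Clover. AluJ gave 4638 to 5158 against 4014 to 4480, and AluS, the most counted dimeric group, 11662 to 12702 against 10456 to 11554. Ratios between these groups were not tested. Of all repeat counts on the element's own strand, monomers held 0.862% to 0.898% with Clover and 0.900% to 0.939% with Z18fl. They held 0.828% to 0.872% with Z18trunc and 0.673% to 0.895% with Z18truncZnFmut, where replicate 3 was the lowest. The means were 0.884%, 0.925%, 0.850% and 0.810%. With Z18trunc and Z18truncZnFmut monomers thus stood higher against dimeric Alu but not against all repeats.

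Left and right arms were also compared with each other. The log2 ratio of FLAM to FRAM counts was 1.65, 1.53 and 1.54 with Clover and 1.43, 1.42 and 1.41 with Z18fl, so right arms held a larger part with Z18fl in all 3 libraries (exact permutation p = 0.1, adjusted 0.174). It was 1.43, 1.56 and 1.53 with Z18trunc, overlapping Clover. It was 1.42, 1.62 and 1.86 with Z18truncZnFmut, also overlapping Clover, and the highest value was replicate 3.

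The next comparison was by the position of a monomer against genes. Monomers in introns gave 164, 145 and 141 CPM with Clover, 269, 257 and 276 with Z18fl, 249, 253 and 268 with Z18trunc, and 237, 251 and 284 with Z18truncZnFmut. The group means were 1.78, 1.71 and 1.71 times the Clover mean, and no library overlapped Clover. Monomers in exons gave 127 to 136 with Clover, 125 to 136 with Z18fl, 134 to 136 with Z18trunc and 118 to 138 with Z18truncZnFmut, with means 0.99, 1.02 and 0.94 times that of Clover. Intronic copies were therefore more abundant with every ZC3H18 protein on this scale, while exonic copies overlapped the control throughout.

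**Figure D2:**
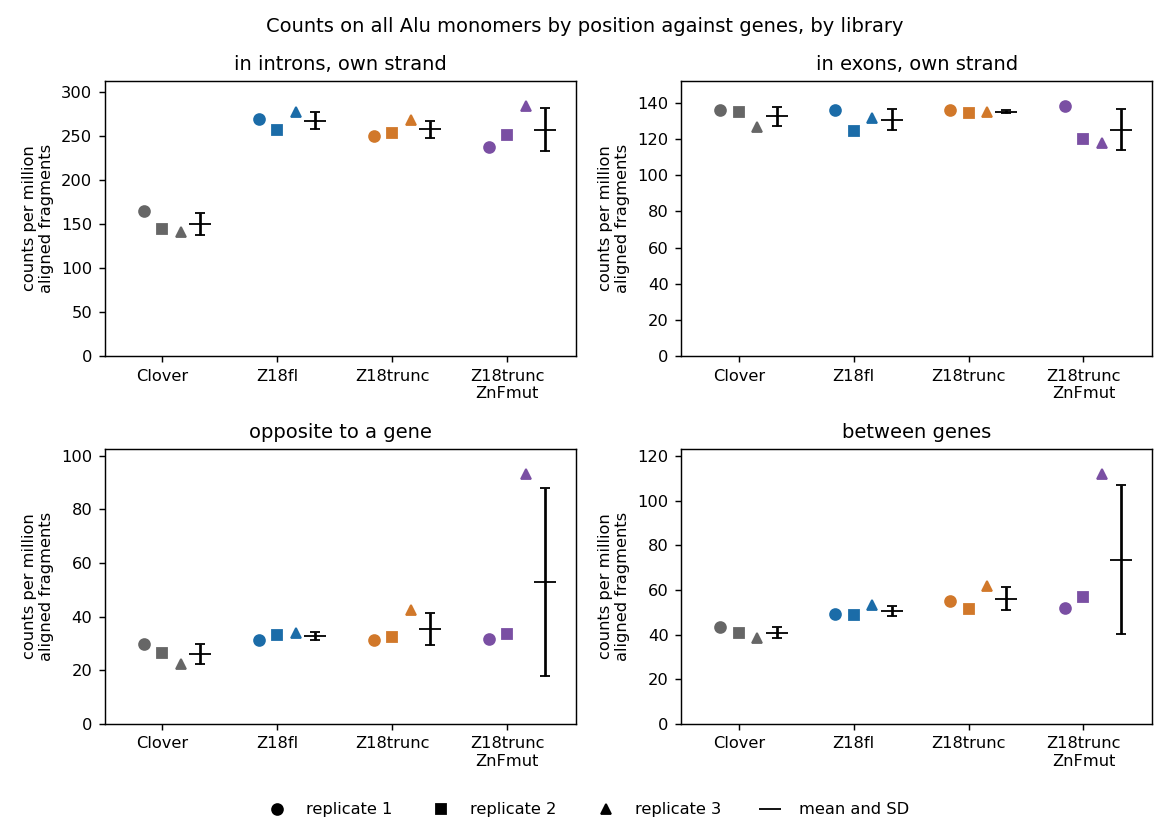
CPM (y axis, from 0) on all Alu monomers in introns, in exons, opposite to a gene and between genes, in each of the 12 libraries grouped by tagged protein; markers are libraries and the bar is the mean with its SD. Intronic monomers lay between 141 and 164 with Clover and between 237 and 284 in the other 9 libraries, exonic monomers lay between 118 and 138 in all 12, and Z18truncZnFmut replicate 3 lay far above the rest in the panels of antisense and intergenic copies.

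As a share of monomer counts, which needs no scaling, introns held 42.9% ± 1.14 (SD, n = 3) with Clover, 55.5% ± 0.233 with Z18fl, 53.2% ± 0.484 with Z18trunc and 50.9% ± 3.86 with Z18truncZnFmut. Each differed from Clover without overlap, and Z18trunc lay below Z18fl without overlap (exact permutation p = 0.1 in each case, adjusted 0.174). Exons held 38.0% ± 1.35 with Clover and 27.2% ± 0.752, 27.99% ± 1.18 and 25.2% ± 5.43 with the other proteins in the same order. The 3 Z18truncZnFmut libraries held 51.6%, 54.4% and 46.8% in introns and 30.2%, 26.0% and 19.4% in exons. Replicate 3 was the lowest in both shares, and without it the means were 53.0% and 28.1%. All intronic elements tested had median log2 changes under TMM scaling of 0.64, 0.47 and 0.22 with Z18fl, Z18trunc and Z18truncZnFmut. All exonic elements tested had -0.62, -0.49 and -0.38 in the same order. A split by position was thus not seen in monomers alone. Antisense copies gave 22.2 to 29.6 CPM with Clover and 31.1 to 42.3 in the other libraries except Z18truncZnFmut replicate 3, which gave 93.3. Intergenic copies gave 38.3 to 43.4 with Clover and 48.9 to 61.7 in the same libraries, against 112 in that replicate. The higher intronic level held in every subfamily. FRAM in introns gave 32.9 ± 1.42 with Clover and 65.6 ± 2.05 with Z18fl, and FLAM_C in introns gave 67.9 ± 7.24 and 119 ± 4.79.

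The part of monomer RNA that ran in the direction of the element was 76.7% ± 0.904 (SD, n = 3) with Clover, 80.8% ± 0.227 with Z18fl, 79.1% ± 0.852 with Z18trunc and 78.1% ± 3.15 with Z18truncZnFmut. The Z18truncZnFmut libraries gave 79.6%, 80.3% and 74.5%, so replicate 3 lay below the Clover mean and the others above it. Uniquely mapping reads made up 67.5% to 73.5% of monomer counts with Clover and 75.2% to 78.6% with Z18fl, without overlap. The other groups lay between 70.0% and 76.2%. Thymine content weighted by counts was 19.8% ± 0.050 with Clover and 19.5% ± 0.098 with Z18fl, without overlap (exact permutation p = 0.1, adjusted 0.174).

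Single copies were then tested across all repeat elements with edgeR. With Z18fl, 26 of 114 monomers tested were called higher and 31 lower, where all elements gave 28.3% higher and 24.6% lower. With Z18trunc, 11 of 109 were called higher and 17 lower (all elements 22.5% and 13.4%). With Z18truncZnFmut, 1 of 86 was called higher and 6 lower (all elements 12.3% and 4.83%). Z18trunc against Z18fl gave 2 higher and 6 lower of 160 (all elements 2.62% and 3.13%). Z18truncZnFmut against Z18trunc gave 0 calls among 143 monomers (all elements 0.368% higher and 0.351% lower), with 8 monomers at an unadjusted p under 0.05. DESeq2 also gave 0 there, with 2 at an unadjusted p under 0.05, and left 121 of the 143 without an adjusted p. Copies that passed the filter through the group where they were high had to differ, so these counts describe the tested copies alone. Scaled by aligned fragments the split of higher to lower became 39 to 16 with Z18fl, 16 to 5 with Z18trunc, 3 to 2 with Z18truncZnFmut and 3 to 4 for Z18trunc against Z18fl. Over all elements the same scaling also gave more calls higher and fewer lower against Clover with every ZC3H18 protein. The shift against Clover was thus not seen in monomers alone. For Z18trunc against Z18fl, all elements had fewer calls in both directions.

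Single libraries moved some of these counts, and the number tested and the calls over all elements moved with them. Without Z18fl replicate 2 or replicate 3, 19 monomers were called lower with Z18fl in place of 31. Those fits tested 105 and 102 monomers in place of 114. Over all elements they gave 2113 of 10738 and 1996 of 10642 lower, in place of 2981 of 12098. With Z18trunc, 10 were called lower without its replicate 2 and 11 without its replicate 3, and 7 were called higher without its replicate 3. With Z18truncZnFmut, leaving out Clover replicate 2 left 3 called lower, and leaving out its own replicate 3 left 1 higher and 4 lower. The number called higher with Z18truncZnFmut was 0 without its replicate 1 or its replicate 2 and 2 without Clover replicate 1 or replicate 2. For Z18trunc against Z18fl, 1 call stood without Z18fl replicate 2 or Z18trunc replicate 1, 4 without Z18fl replicate 1 and 5 without Z18fl replicate 3. For Z18truncZnFmut against Z18trunc, 3 monomers were called without Z18truncZnFmut replicate 1.

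The tested copies were then split by position. With Z18fl, 16 of 31 intronic monomers were called higher and 4 lower, where all intronic elements gave 41.8% and 12.8%. Of 66 exonic monomers, 8 were called higher and 25 lower, where all exonic elements gave 11.5% and 42.4%. Median log2 changes were 1.07 in introns and -0.45 in exons under TMM scaling, or 1.44 and -0.09 by aligned fragments. Some copies entered only through the group where they were high, so medians here and below describe the tested copies alone. All intronic elements had a median of 0.64 under TMM and all exonic elements one of -0.62. Intronic dimeric Alu had 0.05, with 406 of 1852 called higher and 372 lower. How the filter shaped that contrast was not tested. With Z18trunc, 8 of 30 intronic monomers were called higher and 2 lower (all intronic elements 35.4% and 6.01%), and 2 of 63 exonic monomers higher and 14 lower (all exonic elements 4.08% and 26.6%). Their medians were 0.72 and -0.57 under TMM or 1.06 and -0.23 by aligned fragments. With Z18truncZnFmut, 1 of 20 intronic monomers was called higher and 0 lower (all intronic elements 21.3% and 1.76%), and 0 of 54 exonic monomers higher and 6 lower (all exonic elements 0.914% and 10.7%). The medians were 0.00 and -0.49 under TMM or 0.22 and -0.28 by aligned fragments. Without replicate 3 of Z18truncZnFmut, a setting added after the data were seen, they were 0.41 over 18 intronic and -0.44 over 57 exonic monomers under TMM, and the calls were 1 higher in introns and 4 lower in exons. With Z18fl and Z18trunc the medians of monomers in introns and in exons had the sign of all elements at the same position.

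**Figure D3:**
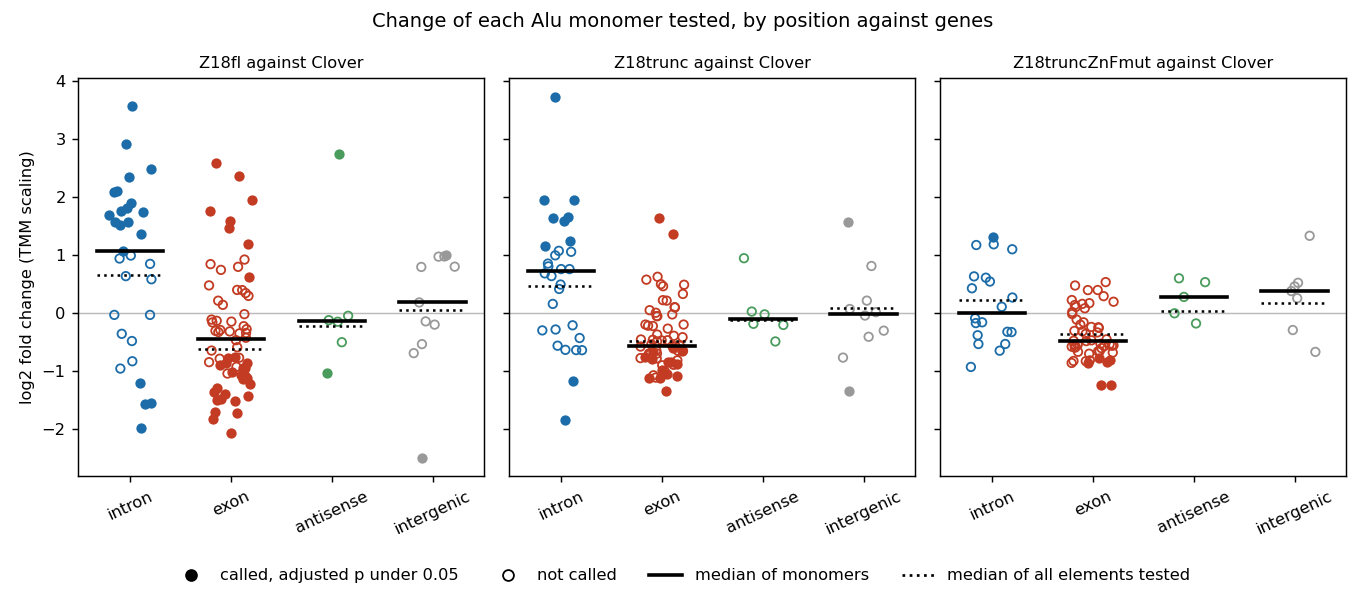
Log2 fold change against Clover under TMM scaling (y axis) of each tested monomer, by position against genes (x axis), for Z18fl, Z18trunc and Z18truncZnFmut; filled points were called by edgeR at an adjusted p under 0.05, bars are medians of the monomers and dotted bars medians of all elements tested. With Z18fl intronic monomers had a median of 1.07 and exonic monomers one of -0.45; by aligned fragments these were 1.44 and -0.09.

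Among subfamilies, FRAM had 12 of 31 copies called higher and 3 lower with Z18fl, and 8 of its 11 intronic copies were among those higher. FLAM_C had 11 of 53 higher and 19 lower, with 15 of the 19 in exons. FLAM_A had 3 of 20 higher, all in introns, and 5 lower, all in exons. FAM had 0 of 10 higher and 4 lower. All elements tested with Z18fl gave 28.3% higher and 24.6% lower. Of intronic elements 41.8% were called higher, and of exonic elements 42.4% lower. AluJ gave 16.3% higher and 32.2% lower, and AluS 14.9% and 35.4%. Medians under TMM were 0.79 for FRAM, -0.32 for FLAM_A, -0.32 for FLAM_C and -0.85 for FAM. By aligned fragments the medians of FLAM_A and FLAM_C became 0.05 and 0.03, a change of sign. The copies called higher with Z18fl had a median thymine content of 17.9% and those called lower 19.5%. Across the 114 loci thymine content and log2 change had r = -0.34, a description over loci that share libraries and position.

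Of the 6 copies named for their rise with Z18fl, those in CDK11B, GCDH and RPL35 lay in introns, that at C1orf35 lay opposite to the gene, and those in EIF3B and CHKB lay in exons. All 6 had few counts with Clover and passed the filter on low counts through the group where they were high. A difference was thus built into their selection, and their p-values are no separate support for a rise. The FRAM in an intron of CDK11B, a cyclin-dependent kinase, had 0, 0 and 4 counts with Clover and 30, 31 and 29 with Z18fl. It had 28, 36 and 36 with Z18trunc and 20, 13 and 24 with Z18truncZnFmut. Clover lay below every other library. The log2 change was 3.57 (SE 0.67, edgeR adjusted p = 0.00026) with Z18fl and 3.74 (SE 0.66, edgeR adjusted p = 0.0002) with Z18trunc, each resting on 4 Clover counts. CDK11B has a near-identical neighbour gene, and 92.2% of the Z18fl counts of this copy mapped uniquely.

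The FLAM_C in an intron of GCDH, a mitochondrial enzyme of lysine breakdown, had 2, 2 and 1 counts with Clover and 25, 23 and 23 with Z18fl, but 7, 5 and 12 with Z18trunc and 7, 17 and 16 with Z18truncZnFmut. Z18fl stood above all other libraries. The log2 change with Z18fl was 2.92 (SE 0.54, edgeR adjusted p = 0.00025), and Z18trunc lay below Z18fl by -1.62 (SE 0.39, edgeR adjusted p = 0.017). That second call was lost in 4 of 6 fits without 1 library, namely Z18fl replicates 1 and 2 and Z18trunc replicates 1 and 2 (edgeR adjusted p up to 0.085). In that comparison the copy passed the filter on low counts through Z18fl, where it was high. Its p-value there is no separate support for a fall.

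The FLAM_A in an intron of RPL35, a protein of the large ribosomal subunit, had 5, 4 and 2 counts with Clover and 31, 42.4 and 40.2 with Z18fl (log2 change 2.49, SE 0.43, edgeR adjusted p = 0.00013). It had 11, 16 and 28.6 with Z18trunc and 14, 20 and 11 with Z18truncZnFmut. The FRAM in an intron of GPR137, an orphan membrane protein, had 7, 5 and 9 counts with Clover, 55, 45 and 41 with Z18fl, 21, 39 and 28 with Z18trunc and 29, 27 and 25 with Z18truncZnFmut. This copy too passed the filter on low counts through the groups where it was high. It was called higher with all 3 proteins, by 1.90, 1.23 and 1.30 (edgeR adjusted p = 0.00029, 0.026 and 0.038), and was the only monomer called higher with Z18truncZnFmut in that fit. The Z18truncZnFmut call was lost without any single Clover library, without Z18truncZnFmut replicate 3, with DESeq2, no filter, either strand or the replicate block, and the copy was not tested without Z18truncZnFmut replicate 1 or 2 or with unique reads. The Z18trunc call was lost without Clover replicate 1, Clover replicate 2 or Z18trunc replicate 2 (edgeR adjusted p up to 0.10) and with the replicate block (edgeR adjusted p = 0.0502).

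A copy on the strand opposite to a gene came next. The FRAM opposite to C1orf35, at chr1:228103818-228103954, had 7, 10 and 4 counts with Clover and 63.4, 96 and 97 with Z18fl. It had 23.5, 23 and 26 with Z18trunc and 14, 8 and 9 with Z18truncZnFmut. Z18fl stood highest, Z18trunc next, and Z18truncZnFmut overlapped Clover. The log2 change was 2.75 (SE 0.34, edgeR adjusted p = 4e-06) with Z18fl and 0.94 (SE 0.44, edgeR adjusted p = 0.10) with Z18trunc. Z18trunc lay below Z18fl by -1.90 (SE 0.24, edgeR adjusted p = 6e-05), the smallest adjusted p of any monomer in that comparison.

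Copies in exons could also rise. The FLAM_C in a noncoding exon of EIF3B, a translation initiation subunit, had 1, 5 and 0 counts with Clover, 16, 20 and 32 with Z18fl and 6, 12 and 7 with Z18trunc (Z18fl log2 change 2.59, SE 0.64, edgeR adjusted p = 0.0025). Its change of -1.49 from Z18fl to Z18trunc (edgeR adjusted p = 0.024) was lost without Z18fl replicate 2, Z18fl replicate 3 or Z18trunc replicate 1. In that comparison too the copy passed the filter on low counts through Z18fl, where it was high. That p-value is no separate support for a fall. The FLAM_C in a noncoding exon of CHKB, a choline kinase, had 5, 5 and 3 counts with Clover, 40, 35 and 47 with Z18fl and 21, 20 and 31 with Z18trunc. It rose by 2.36 (SE 0.39, edgeR adjusted p = 8.7e-05) and 1.63 (SE 0.48, edgeR adjusted p = 0.012), and the second call was lost without Clover replicate 3 or Z18trunc replicate 3.

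A further 3 copies were named for their rise with Z18trunc. They too passed the filter on low counts through the group where they were high. The FLAM_A between genes at chr9:89310323-89310452 had 6, 7 and 5 counts with Clover and 29, 28 and 38 with Z18trunc (log2 change 1.57, edgeR adjusted p = 0.0053). The FRAM in the long noncoding RNA PGLS-DT had 6, 9 and 5 with Clover and 27, 34 and 31 with Z18trunc (1.36, edgeR adjusted p = 0.012), a call lost without Clover replicate 3. The FLAM_C in an intron of FOSL1, a subunit of the AP-1 transcription factor, had 8, 4 and 12 with Clover and 39, 28 and 28 with Z18trunc (1.15, edgeR adjusted p = 0.032). Its call was lost without Clover replicate 1, Clover replicate 2 or Z18trunc replicate 1 (edgeR adjusted p up to 0.15). None of these 3 was called with Z18fl, where the changes were 0.97, 0.74 and 0.84.

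The copies named here as lower with all 3 proteins lay in 3′ untranslated regions. The FLAM_A of CES2, a carboxylesterase, had 69.3, 63 and 85 counts with Clover and 67, 40 and 51 with Z18fl. Its log2 change was -1.30, -0.86 and -0.81 with Z18fl, Z18trunc and Z18truncZnFmut (edgeR adjusted p = 0.00011, 0.0022 and 0.0081). The last call was lost without Clover replicate 3. The FLAM_C of LRRC8E, a subunit of the volume-regulated anion channel, had 50, 73 and 47 with Clover and 45, 36 and 27 with Z18fl, and its changes were -1.48, -0.99 and -0.87 (edgeR adjusted p = 0.00021, 0.0026 and 0.017). The Z18truncZnFmut call was lost without Clover replicate 2 or without any single Z18truncZnFmut library. Scaled by aligned fragments, the Z18trunc and Z18truncZnFmut calls of CES2 and the Z18truncZnFmut call of LRRC8E were lost. Both copies lay below Clover with every ZC3H18 protein under TMM scaling and by aligned fragments, where the changes ran from -1.12 to -0.52.

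The largest falls with Z18fl under the naming rule were those of the FLAM_A of SPTLC2, a subunit of the enzyme that starts sphingolipid synthesis, and of the FLAM_C of SPRED3, an inhibitor of the Ras to ERK pathway. The first had 18, 19 and 23 counts with Clover and 6, 10 and 9 with Z18fl (log2 change -2.09, edgeR adjusted p = 0.00032). That copy passed the filter on low counts through Clover, where it was high. The second had 28, 21 and 33 with Clover and 12, 17 and 15 with Z18fl (-1.73, edgeR adjusted p = 0.00031). The FLAM_C of ATP2A2, the calcium pump of the endoplasmic reticulum, fell by 1.02 with Z18fl (edgeR adjusted p = 0.0002) and changed by -0.42 and -0.67 with the other proteins, not called. The FLAM_C of ZNF136, a zinc-finger protein, fell with Z18trunc by 1.12 (edgeR adjusted p = 0.0077), and by aligned fragments that was -0.77 and not called.

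With Z18truncZnFmut the FLAM_C copies of NOL6 and RBM28, both nucleolar proteins, were called lower, at -0.78 and -1.25 (edgeR adjusted p = 0.028 and 0.039). NOL6 had 65, 80 and 47 counts with Clover and 56, 54 and 64 with Z18truncZnFmut. RBM28 had 21, 27 and 15 with Clover and 19, 7 and 16 with Z18truncZnFmut. Raw counts overlapped in both, and levels relative to aligned fragments did not. The NOL6 call was lost without Clover replicate 1, Clover replicate 2 or Z18truncZnFmut replicates 1 or 2, and the RBM28 call without any of those or Z18truncZnFmut replicate 3 (edgeR adjusted p up to 0.19). Both calls were also lost by aligned fragments.

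Other copies were named for their level, as the most counted of their subfamily. The FLAM_C of EAF1, a transcription elongation factor, had 89, 88 and 103 counts with Clover, 61, 51 and 74 with Z18fl and 107, 93 and 110 with Z18trunc. It fell by 1.44 with Z18fl (edgeR adjusted p = 4.8e-06) and by 0.67 with Z18trunc (edgeR adjusted p = 0.0042), and it was higher with Z18trunc than with Z18fl by 0.67 (edgeR adjusted p = 0.035). By aligned fragments the changes against Clover were -1.07 with Z18fl and -0.33 with Z18trunc. The second was not called there, with no filter or without Z18trunc replicate 2, and the raw Z18trunc counts overlapped those of Clover. The FLAM_A copy of FBXL18, a ubiquitin ligase subunit, changed by -1.399 with Z18fl (edgeR adjusted p = 0.00067) and by -1.12 with Z18trunc (edgeR adjusted p = 0.0039), where the second call was lost by aligned fragments (-0.78). The FAM of YWHAB, a 14-3-3 protein, had 41, 62 and 57 counts with Clover and 70, 34 and 66 with Z18fl, and its change was -0.77 (edgeR adjusted p = 0.015). Its libraries overlapped in counts and in CPM, the change by aligned fragments was -0.39, and the call was lost there, with DESeq2, no filter or unique reads, and without Z18fl replicate 2 or replicate 3. The Clover libraries had the fewest aligned fragments, so equal raw counts mean a lower level in the other groups. The FAM of ATP6V1G2-DDX39B, a read-through gene, had 13, 22 and 22 counts with Clover and 48, 33 and 37 with Z18fl, a change of 0.21 (edgeR adjusted p = 0.59).

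A pair of the most counted FRAM copies lay in introns of repeated genes. The copy in CCDC200 had 26.4, 20 and 21 counts with Clover, 108, 150 and 166 with Z18fl, and 144, 145 and 86.9 with Z18trunc. It had 95.0, 0 and 5.31 with Z18truncZnFmut, so replicate 1 of that group alone held nearly all its counts. It rose by 1.81 and 1.65 (edgeR adjusted p = 4.5e-06 and 2.6e-05) with Z18fl and Z18trunc, but 0% of its Clover or Z18fl reads mapped uniquely, so its counts were shared out among copies by estimation. The copy in NSUN5P2, a copy of the NSUN5 gene, had 32.2, 7 and 22.6 counts with Clover and 93.0, 117 and 107 with Z18fl (log2 change 1.52, edgeR adjusted p = 0.00059). It had 45.8, 80.1 and 64.6 with Z18trunc, lower than Z18fl by 0.82 (edgeR adjusted p = 0.023).

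Of the 2 monomers called higher with Z18trunc than with Z18fl, EAF1 was described above. The other, the FLAM_C in an intron of the read-through gene TM4SF19-DYNLT2B, had 23, 31 and 22 counts with Clover, 12, 13 and 9 with Z18fl, 34, 24 and 28.4 with Z18trunc and 31, 21 and 30 with Z18truncZnFmut. Z18fl alone stood low. It was higher with Z18trunc than with Z18fl by 1.25 (SE 0.34, edgeR adjusted p = 0.031), a call lost without any of Z18fl replicates 1, 2 and 3 or Z18trunc replicates 1 and 3 (edgeR adjusted p up to 0.12).

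**Figure D4:**
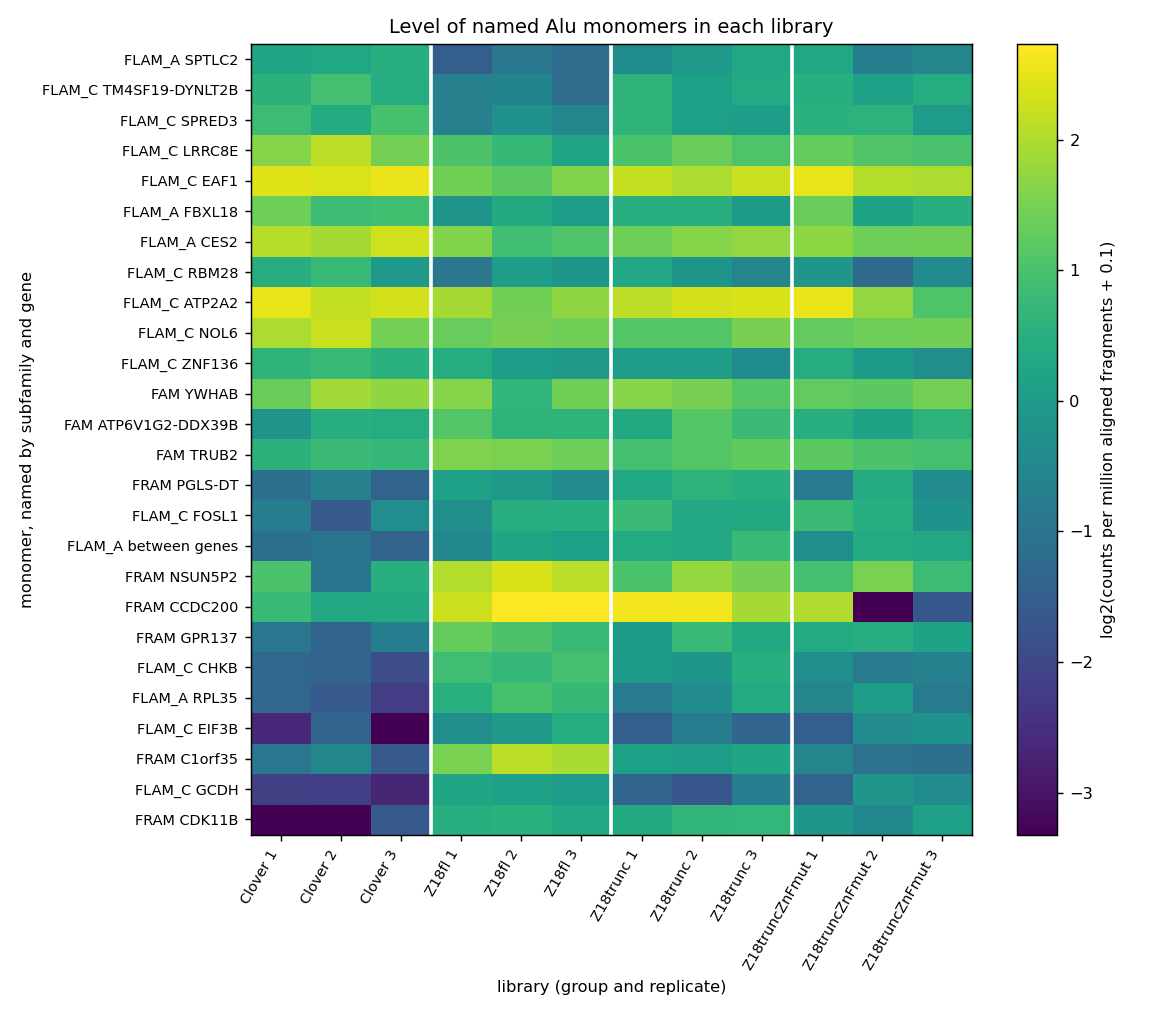
Level of named monomers (rows, by subfamily and gene) in each of the 12 libraries (columns, by group and replicate), as log2 of CPM plus 0.1, ordered by the ratio of the Z18fl to the Clover mean. The FLAM_C of EAF1 goes from a mean CPM of 5.44 with Clover to 2.58 with Z18fl, and the FRAM of CDK11B at the bottom goes from 0.075 to 1.26.

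Monomers were last set against the other repeat elements of the same gene and position. With Z18fl, 57 tested monomers had such partners, with a median of 3 partners each, and 46 of the 57 changed in the direction of the partners' median. Pearson's r was 0.70 and Spearman's rho 0.67 across these 57 loci. With Z18trunc the direction was shared by 48 of 60 (r = 0.71) and with Z18truncZnFmut by 38 of 45 (r = 0.67), or by 37 of 45 (r = 0.64) without its replicate 3. Each r pools introns and exons, where the medians of all elements differed in sign. In introns alone r was 0.78, 0.61 and 0.52 with Z18fl, Z18trunc and Z18truncZnFmut, and in exons alone 0.46, 0.69 and 0.70. Without replicate 3 of Z18truncZnFmut its values were 0.43 in introns and 0.54 in exons. These are descriptions over loci that share libraries, genes and the Clover control. In introns the monomer exceeded its partners by a median of 0.43 with Z18fl and 0.27 with Z18trunc, and by -0.00 with Z18truncZnFmut, or 0.13 without its replicate 3. In exons the median differences were 0.06, -0.10 and -0.05, the last being -0.12 without that replicate.

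**Figure D5:**
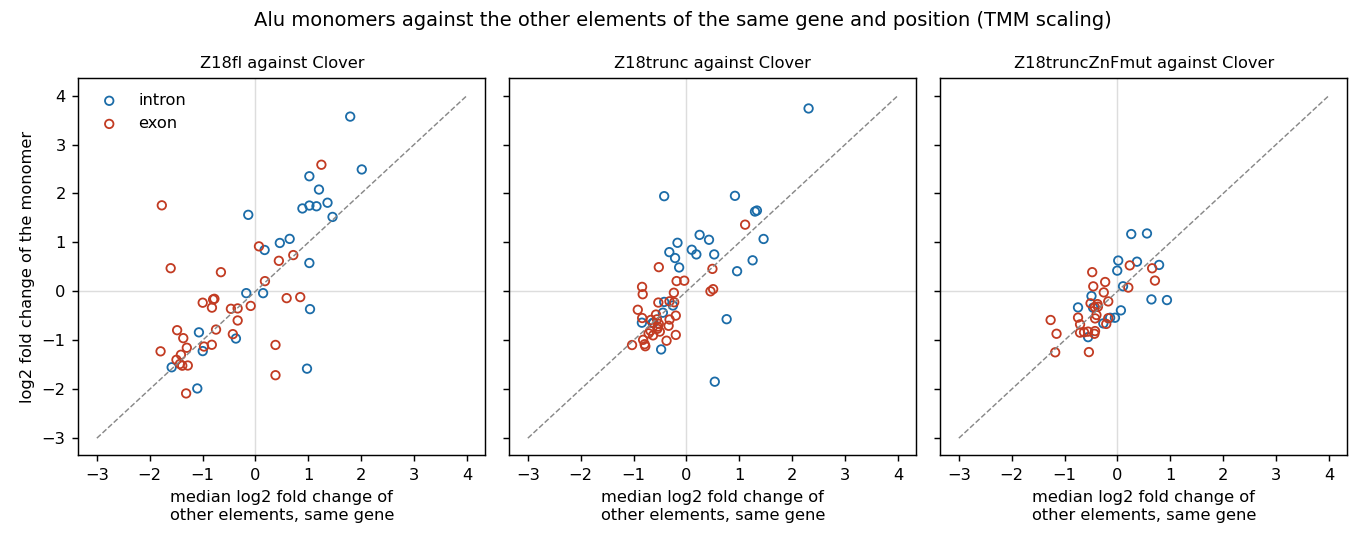
Log2 fold change against Clover of each tested monomer (y axis) against the median log2 fold change of the other tested repeat elements in the introns or exons of the same gene (x axis), both under TMM scaling, for 3 proteins; the dashed line marks equal change. With Z18fl 46 of 57 monomers lie on the same side of 0 as their gene's other elements, and by aligned fragments both axes shift by the same library factors.

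Some copies parted from their gene, and 4 were picked for that after their values were seen, from those with at least 3 partners. The FAM in the 3′ untranslated region of TRUB2, an RNA pseudouridine synthase of mitochondria, had 23, 28 and 27 counts with Clover and 65.8, 63 and 65 with Z18fl. The 5 other elements there summed to 128, 121 and 115 with Clover and 84, 76 and 82 with Z18fl. The monomer thus stood higher in all 3 libraries while its neighbours stood lower (log2 changes 0.47, not called, and a median of -1.60). The FLAM_C in an intron of SMARCA4, a chromatin remodelling ATPase, went the other way. It had 11, 16 and 10 counts with Clover and 8.85, 5 and 8 with Z18fl, while 14 partners summed to 131 to 149 and 289 to 310.0 (log2 changes -1.58 and a median of 0.97). This copy passed the filter on low counts through Clover, where it was high, so a fall was favoured by its selection. The FLAM_C of WDR73 changed by -1.71 against a partner median of 0.38, and the FRAM of CDK11B by 3.57 against 1.79.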

How the data were processed

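RNA from anti-V5 PAR-CLIP in 12 A375 libraries was analysed. The authors trimmed reads with Cutadapt 4.6 and ran SQuIRE on hg38, which assigns unique reads and shares out multimapping reads by expectation maximisation. The deposited tables hold, per repeat element and library, a unique read count (whole numbers) and a total that is an estimated count. They also give an FPKM value, a SQuIRE score in percent for the share of certain reads, and a divergence score, all computed by the authors and deposited beside the counts. FPKM was not used.

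Totals on the element's own strand were rounded and tested with edgeR 4.0.16 (quasi-likelihood, TMM, filterByExpr with a minimum count of 10 and a total of 15) in R 4.3.3, across all elements, for each pair of groups, with Benjamini-Hochberg adjustment at 0.05. DESeq2 1.42.0 was an alternative. Levels were divided by aligned fragments. Single values were tested with exact two-sided permutation tests in scipy 1.17.1. An element was called exonic if at least 50% of it lay in exons of a gene on its strand (GENCODE 44), otherwise intronic by its midpoint, then antisense, then intergenic. Pearson's r and Spearman's rho across loci are descriptions. The scripts were tested on simulated data.

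Loci were named as follows: in each subfamily the 3 with the highest mean level, for each protein against Clover up to 6 called loci that rose and 6 that fell most, and for the other comparisons up to 3 each way. Changed loci also needed groups that did not overlap, and the group with the larger level had to average 20 counts and a SQuIRE score of 80 or more. Copies named outside the rule are said to be so. Some named copies, and the sequences of single copies, are not reported here. The members and lists were chosen with earlier results of these data known. Replicate numbers are shared between groups, but same-numbered libraries did not deviate together (r from -0.12 to 0.13 over 18 pairs), so no block was used. Alternatives tried were DESeq2, library sizes from aligned fragments, no filter, reads on either strand, unique reads only, all 12 libraries in a single fit, the replicate block, and leaving out each library in turn. Values of Z18truncZnFmut by position and against the same gene were also computed without its replicate 3, a setting added after the data were seen.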

Additional observations from a re-analysis of the deposited data

How the results depend on the processing

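Among single loci, counts called lower with Z18fl (31) were 17 with DESeq2, 16 by aligned fragments and 12 with no filter. With Z18trunc, 7 were called higher with unique reads only in place of 11. Lower calls (17) were 5 by aligned fragments, 0 with no filter, 10 with unique reads and 29 with all 12 libraries in a single fit. All elements had 2094 higher with unique reads in place of 2969, and their lower calls (1773) were 504, 100, 1077 and 2635. The monomers tested (109) were 8733 with no filter, 77 with unique reads and 208 with all 12 libraries. With Z18truncZnFmut, higher calls (1) were 0 with DESeq2, either strand, unique reads or the replicate block. They were 3 by aligned fragments or with no filter and 5 with all 12 libraries. Lower calls (6) were 2, 0, 3 and 15 by aligned fragments, no filter, unique reads and all 12 libraries. In the same order, lower calls over all elements (490) were 116, 13, 319 and 1263, and higher calls (1245) were 1488, 1520, 826 and 2723. The monomers tested (86) were 10879 with no filter, 60 with unique reads and 208 with all 12 libraries. Calls for Z18trunc against Z18fl (8) were 4 with DESeq2, 1 with no filter, 13 with unique reads and 1 with all 12 libraries. DESeq2 left 100 of the 160 monomers there without an adjusted p. In the same order, all elements had 311, 123, 503 and 176 higher in place of 508. They had 292, 228, 593 and 191 lower in place of 607. The monomers tested (160) were 10081 with no filter, 105 with unique reads and 208 with all 12 libraries. Monomer calls for Z18truncZnFmut against Z18trunc (0) were 2 with no filter, where 12483 monomers were tested in place of 143, and 1 with the replicate block. All elements there had 31 higher and 65 lower with no filter and 22 and 17 with the replicate block, in place of 62 and 59. With the replicate block, 24 monomers were higher and 28 lower with Z18fl, and 10 and 12 with Z18trunc. All elements had 3176 and 2620 with Z18fl, and 2780 and 1365 with Z18trunc, in that setting. The causes were not tested. Low counts limit single copies, and near-identical copies share reads by estimation.

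The subfamily sums, none of them called under TMM, changed sign in several settings. By aligned fragments FLAM_A, FLAM_C and FAM gave 0.39, 0.44 and 0.45 with Z18fl, FLAM_A and FLAM_C gave 0.43 and 0.45 with Z18trunc, and FLAM_A, FLAM_C, FRAM and FAM gave 0.57, 0.54, 0.47 and 0.63 with Z18truncZnFmut. For Z18trunc against Z18fl, FLAM_A and FLAM_C gave 0.036 and 0.015, and for Z18truncZnFmut against Z18trunc, FLAM_A, FLAM_C and FAM gave 0.14, 0.087 and 0.097. FRAM gave -0.0025 with Z18fl and -0.0082 with Z18trunc on either strand, and -0.015 and -0.063 with unique reads. For Z18trunc against Z18fl, FLAM_A gave 0.0014 with DESeq2, 0.026 on either strand and 0.022 with all 12 libraries, where FLAM_C gave 0.00066. On either strand the log2 ratio of monomers to dimeric Alu differed from Clover by 0.20, 0.11 and 0.04 with Z18fl, Z18trunc and Z18truncZnFmut, and Z18trunc differed from Z18fl by -0.0899. With unique reads, monomer levels differed by 109 CPM between Z18trunc and Clover and by -11.6 between Z18trunc and Z18fl.

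Leaving out 1 library at a time, lower calls ranged from 19 to 36 with Z18fl, 10 to 17 with Z18trunc and 3 to 5 with Z18truncZnFmut, and higher calls from 7 to 13 with Z18trunc and 0 to 2 with Z18truncZnFmut. The monomers tested ranged from 102 to 184 with Z18fl, 89 to 198 with Z18trunc and 79 to 150 with Z18truncZnFmut. Lower calls over all elements ranged from 1996 to 3500, 913 to 1796 and 258 to 345 in the same order. Calls ranged from 1 to 8 for Z18trunc against Z18fl and 0 to 3 for Z18truncZnFmut against Z18trunc. Levels differed by -9.63 to 9.38 CPM between Z18trunc and Z18fl and by -23.9 to 50.2 between Z18truncZnFmut and Z18trunc. FAM with Z18fl ranged from -0.0700 to 0.014. With Z18trunc, FLAM_A ranged from -0.10 to 0.029, FLAM_C from -0.082 to 0.044, FRAM from -0.063 to 0.12 and FAM from -0.034 to 0.13. With Z18truncZnFmut they ranged from -0.39 to 0.022, -0.41 to 0.046, -0.53 to 0.094 and -0.34 to 0.13. For Z18trunc against Z18fl, FLAM_A, FLAM_C and FAM ranged from -0.047 to 0.029, -0.067 to 0.00205 and -0.019 to 0.077. For Z18truncZnFmut against Z18trunc, FLAM_A, FLAM_C, FRAM and FAM ranged from -0.23 to 0.074, -0.28 to 0.077, -0.45 to 0.064 and -0.27 to 0.089.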
